A study of Mus musculus with 6 samples.

Results

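Laminins and integrins are the genes described here, in the kidney cortex of mice bred to delete Klf4 in podocytes. The members were all genes whose symbol is Lama, Lamb or Lamc followed by digits, or Itga or Itgb followed by digits, a single letter or 2b. This rule found 37 of the 31053 genes in the files, namely 11 laminin chains, 18 integrin alpha chains and 8 integrin beta chains. RNA of single nuclei was read with droplet sequencing (10x Chromium) from the kidney cortex of FVB/N mice. The 3 knockout libraries came from Podocin-Cre Klf4 fl/fl mice, in which the Cre recombinase runs from the promoter of podocin, a podocyte gene, and cuts the floxed Klf4 alleles there. The 3 control libraries came from Klf4 fl/fl mice, which carry the same floxed alleles without the Cre. Ages, sexes and litters were not given in the labels used here. Podocytes are the cells that cover the glomerular capillaries and form part of the filter, and Klf4 is a zinc-finger transcription factor.

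Laminins are secreted as cross-shaped trimers of an alpha, a beta and a gamma chain, and they form the sheet-like network of every basement membrane. Integrins are surface receptors built of an alpha and a beta chain, and several with the beta 1 chain, or the pair of alpha 6 and beta 4 bind laminin, while alpha V pairs bind fibronectin and can free latent TGF-beta. In the glomerulus the mature basement membrane holds laminin alpha 5, beta 2 and gamma 1, and podocytes are anchored to it by integrin alpha 3 beta 1.

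After filtering, 28904 knockout nuclei and 25519 control nuclei remained, and each cluster was named from marker genes. Library 1 of either group stood apart, with 18238 nuclei in knockout 1 and 16726 in control 1, against 3741 to 5771 nuclei in the other 4 libraries, and with a median mitochondrial share of 1.09% and 2.54% of UMIs (unique molecular identifiers, the counted RNA molecules) against 0.0845 to 0.163% elsewhere. Each pair of libraries shared 5 to 132 barcodes, and the highest share, 1.39% of the smaller library, was between knockout 3 and control 3. Podocyte nuclei carried their 10 defining markers at a summed 43170 to 61130 CPM in the knockouts and 58760 to 66790 CPM in the controls. The same markers named the cluster, so their level is no separate check of the label. CPM is the UMIs of a gene per 1000000 UMIs of its class in a library. Klf4 itself could not serve as a check: podocytes held 4, 0 and 1 Klf4 UMIs in knockouts 1, 2 and 3, against 1, 0 and 0 in controls 1, 2 and 3, and the labels do not say which exons were removed. At this depth 3 UMIs in a group amounted to 5.35 CPM in knockout and 5.52 CPM in control podocytes.

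The members were spread over the cortex by cell type. Of the 36 members with any UMI, 6 had their highest mean level in immune nuclei, 5 in podocytes, 4 each in injured tubule, parietal epithelial and stromal nuclei, and 3 each in endothelial, distal convoluted tubule and urothelial nuclei. Levels are not scaled to transcript length, so they are compared between classes for a gene, not between genes. For 5 members, Itga8, Itgb4, Itgb5, Lama2 and Lama4, every library in the highest class exceeded every library of every other class. The means below run over all libraries of both groups with at least 10 nuclei of the class (n = 6 unless given), and no test was made of these levels. Because they pool both groups, the order can differ within a group: the highest class was the same in knockouts alone for 28 of the 36 members, in controls alone for 25 and in both for 18.

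**Figure D1:**
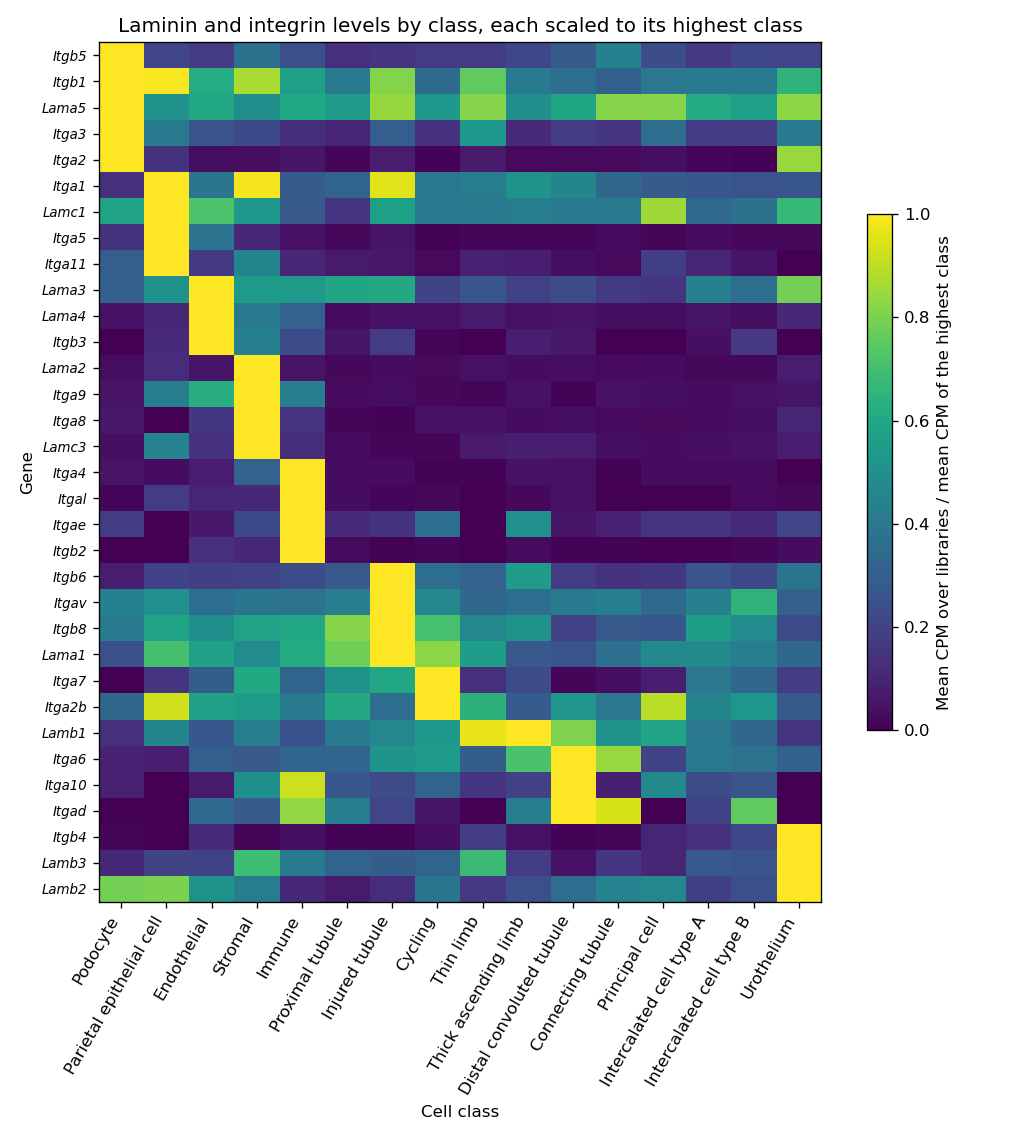
Level of 33 of the 34 members with at least 100 UMIs (rows) in 16 cell classes (columns), as the mean CPM over libraries divided by the mean of the gene's own highest class, so that 1 marks that class. The stromal block (Lama2, Itga8, Itga9, Lamc3), the immune block (Itga4, Itgal, Itgae, Itgb2) and Itgb5 in podocytes stand out.

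Among the laminin alpha chains, Lama2, the chain of muscle and mesenchymal basement membranes, was at 544 ± 215 CPM in stromal nuclei (mesangial, mural and fibroblast nuclei pooled) and at 69.1 ± 54.7 CPM in the next class, parietal epithelial nuclei. Lama4, the chain of vessel walls, was at 124 ± 25.5 CPM in endothelial nuclei against 50.5 ± 16.0 CPM in stromal nuclei. Lama5 was highest in podocytes at 191 ± 64.7 CPM, but the next classes, injured tubule at 160.5 ± 52.1 CPM and urothelium at 159 CPM, lay within its spread. Lama3, an alpha chain of epithelial laminin, was highest in endothelial nuclei at 185 ± 74.9 CPM and next in urothelium at 146 ± 39.6 CPM (n = 4), which did not differ beyond their spread. Its order differed by group: among knockouts, urothelium (147 CPM, n = 2) and endothelial nuclei (137 CPM) led, with injured tubule nuclei at 51.0 CPM, while among controls endothelial nuclei (233.5 CPM) were followed by injured tubule (202 CPM, n = 2) and proximal tubule nuclei (187 CPM). Lama1 was at 91.4 ± 8.85 CPM in injured tubule nuclei (n = 5) and at 75.6 ± 25.0 and 71.1 CPM in cycling and proximal tubule nuclei.

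The laminin beta and gamma chains showed broader overlaps. Lamb1 was highest in the thick ascending limb at 323 ± 105 CPM, beside 312 ± 104 CPM in the thin limb (n = 4) and 260 CPM in the distal convoluted tubule. Lamb2, the beta chain of the mature glomerular membrane, was read rarely, with 718 UMIs in all. It was at 36.0 ± 23.2 CPM in urothelium (n = 4), 28.9 ± 57.9 CPM in parietal epithelial nuclei and 28.5 CPM in podocytes, values that lie within each other's spread. Lamc1, the most widely used gamma chain, was at 177 ± 87.5 CPM in parietal epithelial nuclei and 151.2 ± 16.0 CPM in principal cells. Lamb3, a beta chain of epithelial laminin, was at 56.3 ± 54.5 CPM in urothelium (n = 4) and 38.7 ± 21.4 CPM in stromal nuclei. Lamc3 was at 41.4 ± 10.7 CPM in stromal nuclei and 18.5 ± 39.1 CPM in parietal epithelial nuclei.

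Integrin alpha chains that bind laminin differed in place. Itga3, the laminin receptor chain of podocytes, was at 178 ± 49.5 CPM in podocytes and 94.7 ± 31.7 CPM in the thin limb (n = 4). Itga6 was highest in the distal convoluted tubule at 610 ± 258 CPM, next in the connecting tubule at 517 ± 140 CPM and in the thick ascending limb at 435 CPM, and these 3 neighbours overlapped. The collagen receptor chain Itga2 was at 146 ± 62.4 CPM in podocytes and 123 ± 114 CPM in urothelium (n = 4), and 21.2 CPM in the third class. Itga1, the other collagen receptor chain, was at 465 ± 159, 458 ± 114 and 442 CPM in parietal epithelial, stromal and injured tubule nuclei. Reads of Itga1 share their strand with Pelo and Gm49395, which lie inside the gene in the GENCODE M21 annotation of GRCm38, so its counts are less certain.

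Itga8, the nephronectin receptor chain of mesangial cells, was at 155 ± 44.5 CPM in stromal nuclei against 25.4 CPM in endothelial nuclei. Itga9 was at 209 ± 59.0 CPM in stromal and 132 ± 33.4 CPM in endothelial nuclei. Itgav was highest in injured tubule nuclei at 690.5 ± 273 CPM (n = 5) and next in type B intercalated cells at 450 ± 48.7 CPM. That order held among knockouts, at 883 ± 51.3 against 433 ± 52.0 CPM, and not among controls, at 401 ± 120 (n = 2) against 467 ± 48.7 CPM. Its partners Itgb6 and Itgb8 had their highest pooled means in injured tubule nuclei, Itgb6 at 983 CPM (828.7 CPM in the lowest of 5 libraries) against 539 ± 117 CPM in the thick ascending limb, and Itgb8 at 480 ± 69.1 CPM against 391.9 ± 117 CPM in the proximal tubule. Itgb5 was at 387 ± 69.1 CPM in podocytes against 170 ± 37.8 CPM in the connecting tubule. Itgb1, the most common beta chain, was at 221 ± 95.9 CPM in podocytes, 220 ± 171 CPM in parietal epithelial and 194 CPM in stromal nuclei, and these did not differ beyond their spread. Itgb4, the hemidesmosome chain, was at 126 ± 39.9 CPM in urothelium (n = 4) against 26.8 ± 8.86 CPM in type B intercalated cells.

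The leukocyte chains were read in immune nuclei: Itga4 at 65.0 ± 40.6 CPM, Itgal at 25.5 ± 23.9 CPM, Itgae at 23.2 ± 15.4 CPM, Itgb7 at 20.2 ± 23.2 CPM, Itgb2 at 17.96 ± 11.9 CPM and Itgax at 15.9 ± 11.7 CPM. Their totals over the series were 448, 146, 535, 94, 105 and 77 UMIs in that order. Itgam had 0 UMIs in all 6 libraries, and the annotation places Gm49368, with 15 UMIs, on the same strand over it. The other members of low count were Itga5 (640 UMIs, highest in parietal epithelial nuclei), Itga7 (778) and Itga2b (670, both highest in cycling nuclei), Itga11 (222, parietal epithelial nuclei), Itgad (137) and Itga10 (150, both distal convoluted tubule) and Itgb3 (148, endothelial nuclei). The cycling means of Itga7 and Itga2b were 14.3 ± 19.1 and 11.15 ± 13.6 CPM. In control cycling nuclei 3 UMIs amount to 28.1 CPM, so these 2 places are uncertain. Among knockouts alone Itga7 was highest in immune nuclei, at 7.54 CPM.

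The comparison of knockout with control nuclei asks which of these genes differ in podocytes, where the Cre runs, and in the other cells. A library entered a class with at least 10 nuclei, sums of UMIs were compared with edgeR's quasi-likelihood test, and a call needs a Benjamini-Hochberg adjusted p under 0.05 over all genes tested in the class. All but 4 members (Itgam, Itgax, Itgb2 and Itgb7) passed the low-count filter in at least 1 comparison. The labels do not say whether libraries are separate mice, so the p-values measure the spread between these libraries. Over 15 classes, 195 pairs of a class and a member were tested, and 3 passed the threshold, all of them Lama3. With the replicate number of the labels as a block, 11 pairs passed, and that fit called 0.106% of genes in the proximal tubule and 1.31% in injured tubule nuclei.

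At an unadjusted p under 0.05, more members passed, and most were Lama3, Itga6, Itgb6 or Itgb1. The counts were 4 of 26 in the proximal tubule (beside 7.39% of all genes there), 7 of 16 in injured tubule nuclei (14.6%), 4 of 19 in stromal nuclei (9.69%), 5 of 17 in endothelial nuclei (4.96%) and 3 of 12 in immune nuclei (6.14%). They were 2 of 12 and 3 of 13 in type A and type B intercalated cells (11.3% and 5.94%), 2 of 15 in the thick ascending limb (4.55%), and 1 each of 11, 12, 10 and 12 in the connecting tubule (4.54%), cycling nuclei (6.42%), the distal convoluted tubule (4.36%) and principal cells (5.30%). Urothelium had 0 of 9 (4.72%), and parietal epithelial nuclei 1 of 4 (15.3%). After adjustment, the immune, type A and type B comparisons called 0.0705%, 0.0386% and 0.0182% of genes, the distal convoluted tubule 0.0246%, and those of the connecting tubule, cycling, endothelial, principal, thick ascending limb and urothelial nuclei 0.

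Members whose groups did not overlap were counted in the same way. Every knockout was above every control for 8 of 16 members in injured tubule nuclei (beside 21.7% of all genes), 4 of 26 in the proximal tubule (7.41%), 4 of 17 in endothelial nuclei (6.94%), 3 of 19 in stromal nuclei (8.09%) and 3 of 9 in urothelium (19.4%). It was so for 2 of 12 members each in cycling (7.73%), immune (7.37%) and type A intercalated nuclei (9.70%), and 2 of 13 in type B (5.82%). The same held for 2 of 7 in podocytes (7.47%), 2 of 15 in the thick ascending limb (5.32%) and 2 of 10 in the distal convoluted tubule (6.55%). Every knockout was below every control for 1 of 12 members in cycling (7.22%), 1 of 17 in endothelial (3.26%) and 1 of 12 in immune nuclei (4.48%). It was also so for 1 of 15 in the thick ascending limb (3.65%) and 1 of 9 in urothelium (13.9%). Lama3 was the member below in the proximal tubule (5.63%), injured tubule (14.4%), stromal (6.25%), type A (7.19%) and type B nuclei (5.71%). Itgav was below in the connecting tubule (4.48%), and Itga1 in parietal (11.3%) and principal nuclei (4.01%). Over the whole cortex 1 of 33 was below (5.52%), beside 7 of 33 above (10.7%).

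Lama3 fell in the proximal tubule, in injured tubule nuclei and in stromal nuclei of the knockouts, where the control level was 5.79, 3.80 and 4.81 times the knockout level in the fit. In the proximal tubule, Lama3 was at 42.6, 23.3 and 30.1 CPM in knockouts 1, 2 and 3, against 158.5, 238 and 165 CPM in controls 1, 2 and 3. All 3 knockout libraries lay below the lowest control, as for 5.63% of genes tested in the class. The log2 fold change was -2.53 ± 0.25 (SE), with an edgeR adjusted p of 0.0325. Lama3 was the 1 called of 26 members tested there, in a comparison that called 0.0380% of 13174 genes.

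Injured tubule nuclei had 51.9, 48.8 and 52.3 CPM of Lama3 in knockouts 1, 2 and 3, against 171 and 234 CPM in controls 1 and 3. Control 2, with 8 such nuclei, was not used, and the groups did not overlap, as for 14.4% of genes. The change was -1.92 ± 0.27 on the log2 scale (edgeR adjusted p = 0.0229), and 1 of 16 members was called in a comparison that called 0.249% of genes. In stromal nuclei the levels were 39.0, 15.1 and 37.3 CPM in knockouts 1, 2 and 3, against 160, 265 and 88.0 CPM in controls 1, 2 and 3, again without overlap, as for 6.25% of genes. The log2 change was -2.26 ± 0.42 (edgeR adjusted p = 0.0402), with 1 of 19 members called beside 0.478% of all genes.

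Leaving out single libraries ended these calls without turning them. In the proximal tubule the call was lost without control 1, 2 or 3 or knockout 2 or 3 (edgeR adjusted p of 0.0673 to 0.240), at log2 changes of -2.62 to -2.37. In injured tubule nuclei it was lost without control 1, knockout 2 or knockout 3 (edgeR adjusted p of 0.235 to 0.310), and in stromal nuclei without control 1 or 2 or any 1 knockout (edgeR adjusted p of 0.0509 to 0.222). The stromal call was also lost with doublets kept, with the members among the clustering genes, with each cluster named by its highest marker score and without the barcodes that libraries share (edgeR adjusted p of 0.0535 to 0.0609), and the injured tubule call with doublets kept (log2 -1.71, edgeR adjusted p = 0.0709). Without both libraries numbered 1, Lama3 passed in all 3 classes, at -2.87, -2.14 and -2.48.

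In 4 further classes Lama3 passed with the replicate block and not in edgeR's fit without it. Of these, immune nuclei and both intercalated classes also passed with DESeq2 (adjusted p of 0.0474 in immune nuclei, 0.00912 in type A and 0.00855 in type B). Immune nuclei had 33.4, 22.3 and 58.4 CPM in knockouts 1, 2 and 3, against 136, 190 and 155 CPM in controls 1, 2 and 3, without overlap. On the log2 scale the change was -2.10 ± 0.36 (edgeR adjusted p = 0.0517, and 0.00749 with the block, whose fit called 0.600% of genes). Type A intercalated cells had 27.02, 44.5 and 22.7 CPM in the knockouts, against 135, 166 and 87.5 CPM in the controls (log2 -2.11 ± 0.37, edgeR adjusted p = 0.117, and 0.00895 with the block, which called 2.65% of genes). Type B intercalated cells, the bicarbonate-secreting kind, had 21.9, 29.7 and 0 CPM in the knockouts, against 89.7, 195 and 63.4 CPM in the controls (log2 -2.65 ± 0.60, edgeR adjusted p = 0.329, and 0.00674 with the block, which called 0.748%). In both intercalated classes all knockout libraries were below all controls, as for 7.19% of genes in type A and 5.71% in type B.

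In endothelial nuclei, the class of the highest pooled Lama3 level, the log2 change lay nearer to 0. Their levels were 85.0, 162 and 163 CPM in knockouts 1, 2 and 3, against 159, 243 and 299 CPM in controls 1, 2 and 3. The groups overlapped, since knockouts 2 and 3 exceeded control 1. The log2 change was -0.86 ± 0.31 (edgeR adjusted p = 0.937, and 0.0324 with the block, whose fit called 1.51% of genes). In urothelium, Lama3 was at 112.5 and 182 CPM in knockouts 1 and 3, against 112 and 179 CPM in controls 1 and 2 (log2 0.06 ± 0.55). The thick ascending limb, unlike these classes, gave a larger log2 change of -1.95 ± 0.50 (edgeR adjusted p = 0.777). There every knockout library lay below every control, as for 3.65% of genes.

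**Figure D2:**
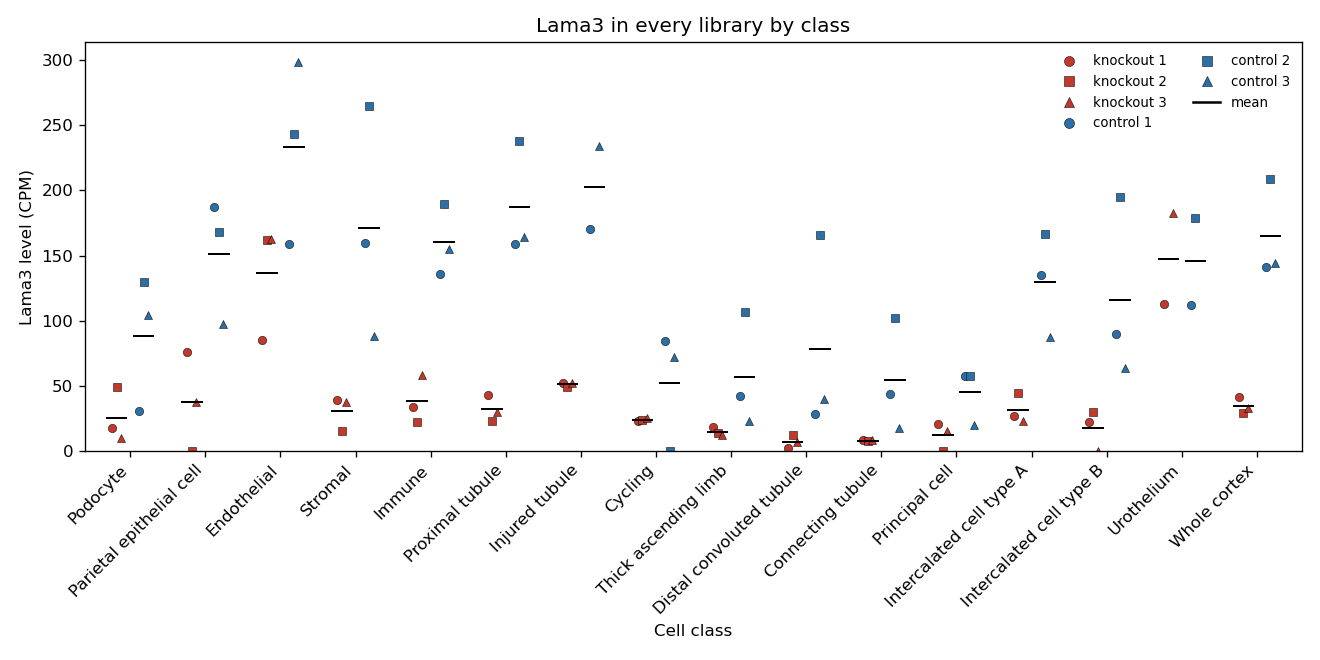
Lama3 level (CPM, y axis) in each library (symbols) of 15 cell classes and the whole cortex (x axis), knockout libraries in red on the left and controls in blue on the right, with group means as bars. The knockout libraries sit below all controls in the proximal tubule, injured tubule, stromal, immune, parietal epithelial and both intercalated classes. The same holds in the thick ascending limb, distal convoluted tubule, connecting tubule and whole cortex. Endothelial, urothelial, podocyte, cycling and principal libraries of the groups overlap.

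Whether the change in the proximal tubule differed from that in other classes was tested as a class by genotype term. Against 14 other classes, none passed the threshold adjusted over all genes, and 3 had an unadjusted p under 0.05. The difference of log2 changes, proximal tubule minus endothelial, was -1.61 ± 0.34 (edgeR adjusted p = 0.450, unadjusted 0.000123). It passed without control 3, without knockout 1 and without both libraries numbered 1, at -1.83, -2.23 and -2.04 (edgeR adjusted p of 0.000234, 0.000676 and 0.0230). Against urothelium the difference was -2.34 ± 0.74 (edgeR adjusted p = 1, with 4 libraries), and against cycling nuclei -1.34 ± 0.58 (edgeR adjusted p = 0.413).

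The lower Lama3 was found across the proximal tubule. It could be compared in 9 of its 10 clusters, and in all 9 each knockout library lay below each control library. The clusters led by Gm16004 and by Aspg had 2 control libraries each. All clusters come from the same 6 libraries, so they do not count as repeats, and no share of all genes was worked out. The separation was not limited to the proximal tubule: the distal convoluted tubule cluster had 1.93 to 12.5 CPM in the knockouts and 28.4 to 166 CPM in the controls. Parietal epithelial nuclei had 0 to 76.0 CPM of Lama3 in the knockouts and 97.5 to 187 CPM in the controls. In that class 11.3% of tested genes lay apart in this way. In the cluster led by Slc5a12 and Spp2, Lama3 was at 0 to 46.0 CPM in the knockouts and 178 to 372 CPM in the controls. In the cluster led by Bcat1, Cyp7b1 and Slc22a19, it was at 13.2 to 22.4 CPM in the knockouts and 63.7 to 111 CPM in the controls.

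Proximal tubule markers were read in every class. The 12 proximal tubule markers summed to 12650 to 13460 CPM in knockout and 12850 to 15640 CPM in control proximal tubule nuclei. They reached 6579 to 7249 CPM in knockout and 8105 to 10230 CPM in control stromal nuclei, and 9386 to 10420 CPM in knockout and 10850 to 12300 CPM in control immune nuclei. In injured tubule nuclei they reached 5037 to 5792 CPM in the knockouts and 10300 to 10990 CPM in the controls. None of the 12 markers was at 0 in these classes. Per 1000 UMIs of these markers, stromal nuclei held 2.30 to 5.64 Lama3 UMIs in the knockouts and 10.8 to 32.7 in the controls, and proximal tubule nuclei 1.84 to 3.16 in the knockouts and 10.3 to 18.5 in the controls. Injured tubule nuclei held 8.97 to 9.77 in the knockouts, against 15.5 and 22.7 in controls 1 and 3, which lie nearer to each other. The part of proximal tubule RNA in the Lama3 levels of other classes was not tested.

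Of the laminin receptor chains, Itga6 was higher in the knockout mean in each of the 13 classes where it was tested, at log2 changes of 0.43 to 1.09, but it passed the threshold in none of them. All classes come from the same 6 libraries, so classes that agree do not count as repeats. The share of all genes that keep 1 direction over the classes was not worked out. These limits also hold for the class counts of Itgb6 and Itgb1 below. Endothelial nuclei had 292, 210 and 218 CPM of Itga6 in knockouts 1, 2 and 3, against 114, 127 and 135 CPM in controls 1, 2 and 3. The groups did not overlap, and 6.94% of all genes tested in endothelial nuclei had every knockout above every control. The fitted log2 change was 0.92 ± 0.22 (edgeR adjusted p = 0.758), and 0.94 with the block (edgeR adjusted p = 0.0294).

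The distal convoluted tubule, the class of the highest pooled Itga6 level, had 676, 810 and 975 CPM in knockouts 1, 2 and 3, against 386, 304 and 509 CPM in controls 1, 2 and 3. No knockout reached down to a control, as for 6.55% of genes tested in this class. The log2 change was 0.95 ± 0.24 (edgeR adjusted p = 0.561, and 0.00682 with the block, which called 0.911% of genes). In the proximal tubule Itga6 was at 274, 237 and 303 CPM in knockouts 1, 2 and 3, against 115, 162 and 107 CPM in controls 1, 2 and 3, without overlap, as for 7.41% of genes. Its log2 change there was 1.09 ± 0.18 with an edgeR adjusted p of 0.192.

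At an unadjusted p under 0.05, Itga6 passed in 10 of the 13 classes, and DESeq2 called it in 1, the proximal tubule (adjusted p = 8.66e-05). The smallest log2 changes of Itga6 were 0.43 ± 0.28 in stromal nuclei and 0.43 ± 0.44 in urothelium. Elsewhere the change was 0.52 ± 0.21 in the connecting tubule, 0.73 ± 0.31 in cycling nuclei, 0.88 ± 0.35 in immune nuclei, 0.87 ± 0.28 in injured tubule nuclei, 0.56 ± 0.26 in type A and 0.63 ± 0.20 in type B intercalated cells, 0.88 ± 0.38 in principal cells and 0.73 ± 0.21 in the thick ascending limb. None of these passed (edgeR adjusted p of 0.205 to 0.999).

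Itgb6, the beta chain of the epithelial receptor for fibronectin and latent TGF-beta, was likewise above the control mean in all 13 classes tested. Its log2 changes were 0.01 to 1.12, with no edgeR or DESeq2 call and with 6 classes at an unadjusted p under 0.05. In parietal epithelial nuclei and podocytes, where Itgb6 was not tested, the knockout mean was below the control mean. Parietal epithelial nuclei had 211.1, 157.1 and 74.64 CPM in the knockouts, against 214.2, 294.3 and 243.7 CPM in the controls, without overlap. Podocytes had 127.6, 16.26 and 20.06 CPM in the knockouts, against 64.47, 71.94 and 150.8 CPM in the controls, with overlap. Endothelial nuclei had 238, 270 and 269 CPM in knockouts 1, 2 and 3, against 144, 65.8 and 135 CPM in controls 1, 2 and 3, without overlap. In log2 terms the change was 1.04 ± 0.27 (edgeR adjusted p = 0.758), and 1.02 with the block (edgeR adjusted p = 0.0294). The proximal tubule markers in endothelial nuclei summed to 7123 to 8806 CPM in the knockouts and 6529 to 11120 CPM in the controls. Injured tubule markers, with none of 9 at 0, summed to 160 to 407.5 CPM in the knockouts and 75.9 to 169 CPM in the controls of this class, with overlap. Cycling markers summed to 74.5 to 172.5 CPM in the knockouts and 13.2 to 47.9 CPM in the controls, without overlap and with none of 7 at 0. The part of these marker sets in the Itgb6 level was not tested. Type A intercalated cells had 342, 292 and 357 CPM in the knockouts, against 214, 147 and 195 CPM in the controls (log2 0.77 ± 0.23, edgeR adjusted p = 0.221). In urothelium the values were 281 and 860 CPM in knockouts 1 and 3 and 256 and 119 CPM in controls 1 and 2 (log2 1.12 ± 0.60, edgeR adjusted p = 0.999).

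The promoters of 3 members are shown because the knockout means of these genes were above control in endothelial nuclei (Itgb6), in most classes (Itgb1) and in podocytes (Itga2). None of these 3 genes was called in edgeR's main fit. They run from 250 bases before to 50 after the transcription start in RefSeq (build GRCm38.p6), written 5′ to 3′ on the gene's own strand, and Itgb6 has a further start that is not printed. Capitals mark CACCC or its reverse complement GGGTG, a short core found in sites of Klf factors, searched on both strands.
Itgb6, chr2:60722554-60722853, minus strand: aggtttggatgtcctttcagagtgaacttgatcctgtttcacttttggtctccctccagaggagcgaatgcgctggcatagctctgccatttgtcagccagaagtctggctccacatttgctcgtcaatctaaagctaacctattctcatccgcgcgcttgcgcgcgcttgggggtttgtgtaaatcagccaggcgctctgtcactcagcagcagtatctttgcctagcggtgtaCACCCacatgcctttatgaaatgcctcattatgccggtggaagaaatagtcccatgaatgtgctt
Itgb1, chr8:128685404-128685703, plus strand: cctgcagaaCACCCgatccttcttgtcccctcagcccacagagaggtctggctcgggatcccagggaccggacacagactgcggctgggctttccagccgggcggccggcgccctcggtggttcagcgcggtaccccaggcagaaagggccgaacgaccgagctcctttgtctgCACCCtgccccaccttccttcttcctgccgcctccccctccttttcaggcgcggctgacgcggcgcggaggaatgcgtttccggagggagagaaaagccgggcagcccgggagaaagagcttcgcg
Itga2, chr13:114932051-114932350, minus strand: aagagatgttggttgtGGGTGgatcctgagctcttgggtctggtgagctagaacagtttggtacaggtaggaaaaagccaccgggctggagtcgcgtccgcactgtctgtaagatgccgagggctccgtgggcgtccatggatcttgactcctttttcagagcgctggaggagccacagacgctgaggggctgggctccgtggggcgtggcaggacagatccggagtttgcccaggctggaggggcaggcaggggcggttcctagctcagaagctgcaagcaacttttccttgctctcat

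These promoters held 1, 2 and 1 copies of the core, while the further start of Itgb6 that is not printed held 0. It is a common string: 18895 of the 32851 promoters in the table (57.5%) held at least 1 copy, and so did 17 of 26 promoters of 23 members (65.4%). Those 26 leave aside chromosome 18, which holds Lama3, and include no entry for Itga6. A match describes the sequence and shows no binding.

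Itgb1 had a knockout mean above control in 14 of 15 classes, at log2 changes of -0.01 to 1.43, and passed in none by edgeR or DESeq2, with 3 classes at an unadjusted p under 0.05. In 9 of the 15 classes every knockout library was above every control. Cycling nuclei had 111, 104 and 133 CPM in knockouts 1, 2 and 3, against 84.4, 0 and 35.9 CPM in controls 1, 2 and 3, from 12 to 17 control nuclei per library, without overlap, as for 7.73% of genes (log2 1.18 ± 0.57, edgeR adjusted p = 0.749). In the proximal tubule Itgb1 was at 90.7, 97.0 and 129 CPM in the knockouts, against 69.3, 81.6 and 76.0 CPM in the controls (log2 0.47 ± 0.17, edgeR adjusted p = 0.617).

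**Figure D3:**
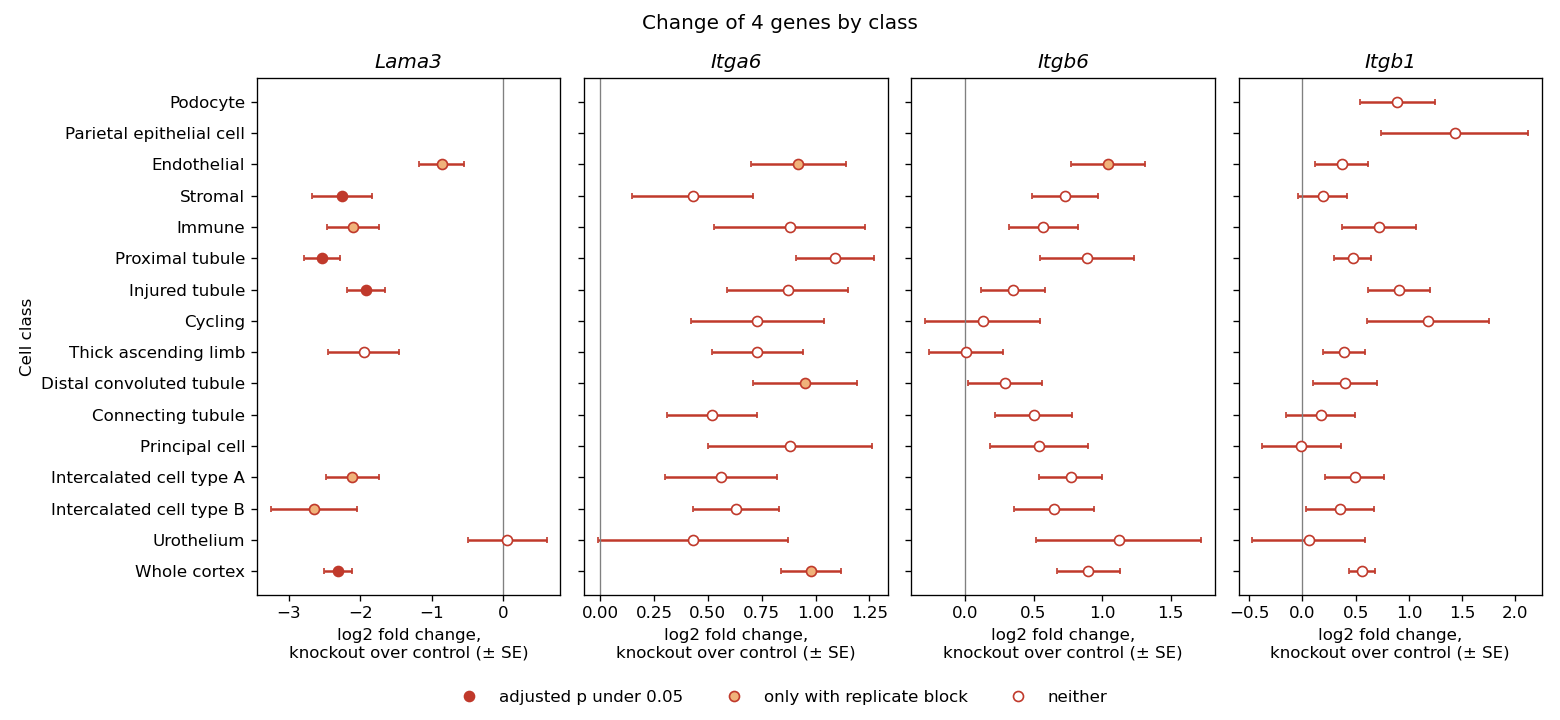
Log2 fold change of Lama3, Itga6, Itgb6 and Itgb1, knockout over control (x axis, bars ± SE of the fit), in each class where the gene was tested and in the whole cortex (y axis). Filled points passed the adjusted threshold, orange points passed it with the replicate block but not in edgeR's fit without it, and white points passed in neither. Lama3 lies left of 0 everywhere but in urothelium, and all points of Itga6 and Itgb6 lie right of 0.

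In stromal nuclei, 13 of 19 members tested had a log2 change above 0, beside 3146 of 6277 genes. The median was 0.16 beside 0.00 over all genes. Lama2 was at 580, 700 and 851 CPM in knockouts 1, 2 and 3, against 278, 343 and 513 CPM in controls 1, 2 and 3. The groups did not overlap, as for 8.09% of genes tested in the class. The log2 change was 0.87 ± 0.25 (edgeR adjusted p = 0.223, and 0.00999 with the block, whose fit called 2.92% of genes). Itga8, the mesangial chain, was at 123, 237 and 172 CPM in knockouts 1, 2 and 3 and 134, 117 and 149 CPM in controls 1, 2 and 3, with overlap. Mesangial and mural markers summed to 805 to 974 CPM in the knockouts and 561 to 1716 CPM in the controls, and fibroblast markers to 1206 to 1738 CPM in the knockouts and 794 to 1542 CPM in the controls. Several other marker sets were apart between the groups, and none of those given here had a marker at 0. Injured tubule markers summed to 194 to 378.5 CPM in the knockouts and 38.9 to 183 CPM in the controls, and parietal epithelial markers to 634 to 1042 CPM in the knockouts and 389 to 591.5 CPM in the controls. Endothelial markers came to 403 to 629 CPM in the knockouts and 771 to 1305 CPM in the controls, and myeloid markers to 138 to 205 CPM in the knockouts and 210 to 352 CPM in the controls. Proximal tubule markers were at 6579 to 7249 CPM in the knockouts and 8105 to 10230 CPM in the controls, and cycling markers at 56.6 to 209 CPM in the knockouts and 17.6 to 34.2 CPM in the controls. The part of these marker levels in the Lama2 values was not tested.

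In injured tubule nuclei, 11 of 16 members tested had a log2 change above 0, beside 3945 of 7617 genes. The median was 0.40 beside 0.03 over all genes. Itgav was at 861, 847 and 942 CPM in knockouts 1, 2 and 3, against 317 and 486 CPM in controls 1 and 3. The groups did not overlap, as for 21.7% of genes in this class. The change was, on the log2 scale, 1.19 ± 0.25 (edgeR adjusted p = 0.0852), and DESeq2 called it (adjusted p = 0.00144). Its partners were at 999, 1011 and 1229 CPM in knockouts and 829 and 846 CPM in controls for Itgb6 (log2 0.35 ± 0.23), and at 485, 560 and 520 CPM in knockouts and 455 and 378 CPM in controls for Itgb8. Injured tubule markers themselves summed to 1612 to 1658 CPM in the knockouts and 251.8 to 252.0 CPM in the controls. The groups thus differ in the genes that name the class, and the part of this in the integrin and Lama3 values was not tested. The collagen receptor chain Itga2, named after its values were seen, had 123 UMIs in knockouts and 0 in controls, at least 2.45-fold higher when 3 UMIs are taken for the control group.

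In podocytes, the cells in which the Cre runs, 7 of the 37 members passed the low-count filter and none was called by edgeR or DESeq2, beside 0.212% of 1888 genes. The median log2 change of the 7 was 0.33, against 0.00 over all genes. At an unadjusted p under 0.05 there were 2 of 7 members, beside 9.96% of all genes. With 45 to 257 podocyte nuclei per library and 61510 to 399714 UMIs, levels rest on few molecules.

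The collagen receptor chain Itga2 was at 193, 195 and 211 CPM in podocytes of knockouts 1, 2 and 3, against 116, 101 and 58.0 CPM in controls 1, 2 and 3. The groups did not overlap, as for 7.47% of genes tested in podocytes. The log2 change was 1.06 ± 0.33 (edgeR adjusted p = 0.309), and 1.42 without both libraries numbered 1 (edgeR adjusted p = 0.0434). Itgb1, its partner, was at 235, 341 and 301 CPM in knockouts 1, 2 and 3, against 170, 71.9 and 209 CPM in controls 1, 2 and 3. Its groups did not overlap either, with a log2 change of 0.89 ± 0.35 (edgeR adjusted p = 0.472). Injured tubule markers in podocytes summed to 500 to 612 CPM in the knockouts and 187 to 384 CPM in the controls, with 3 of 9 at 0 (Krt20, Lcn2 and Sox9), and endothelial markers to 90.3 to 103 CPM in the knockouts and 173 to 345 CPM in the controls, with 1 of 9 at 0. Both sets were apart between the groups, and their part in the Itga2, Itgb1 and Lamc1 values was not tested.

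The anchoring chain Itga3 was at 188, 179 and 171 CPM in knockout podocytes and at 222, 86.3 and 220 CPM in control podocytes, a log2 change of 0.00 ± 0.36. Lama5 was at 193, 309 and 171 CPM in knockouts 1, 2 and 3, against 196, 115 and 162 CPM in controls 1, 2 and 3 (log2 0.41 ± 0.34). Itgb5 was at 275, 472 and 391 CPM in knockouts and 433, 345 and 406 CPM in controls (log2 -0.09 ± 0.26). In all 3 genes the groups overlapped.

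The other integrins tested were Itgav, at 340, 309 and 331 CPM in knockouts 1, 2 and 3, against 240, 388.5 and 209 CPM in controls 1, 2 and 3 (log2 0.33 ± 0.26), and Itgb8, at 228, 163 and 60.2 CPM in knockouts, against 219, 216 and 290 CPM in controls (log2 -0.50 ± 0.43). Lama3, too rare to pass the filter, was at 17.5, 48.8 and 10.0 CPM in knockouts 1, 2 and 3, against 30.9, 129.5 and 104 CPM in controls 1, 2 and 3, from 11 knockout and 30 control UMIs. All 3 of these genes overlapped between the groups.

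Lamc1 did not pass the low-count filter in podocytes either. It was at 95.1, 228 and 160.5 CPM in knockouts 1, 2 and 3, against 51.6, 14.4 and 69.6 CPM in controls 1, 2 and 3, from 68 knockout and 27 control UMIs. All knockouts lay above all controls. It passed the filter and was called when knockout 1 or both libraries numbered 1 were left out. Lamb1, the beta chain of the immature membrane, was at 72.6, 0 and 0 CPM in knockouts 1, 2 and 3, against 72.2, 57.6 and 69.6 CPM in controls 1, 2 and 3, from 29 knockout and 38 control UMIs, and Lamb2 at 10.0, 48.8 and 20.1 CPM in knockouts and 28.4, 28.8 and 34.8 CPM in controls. Knockout 1 alone kept the groups of Lamb1 overlapping.

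**Figure D4:**
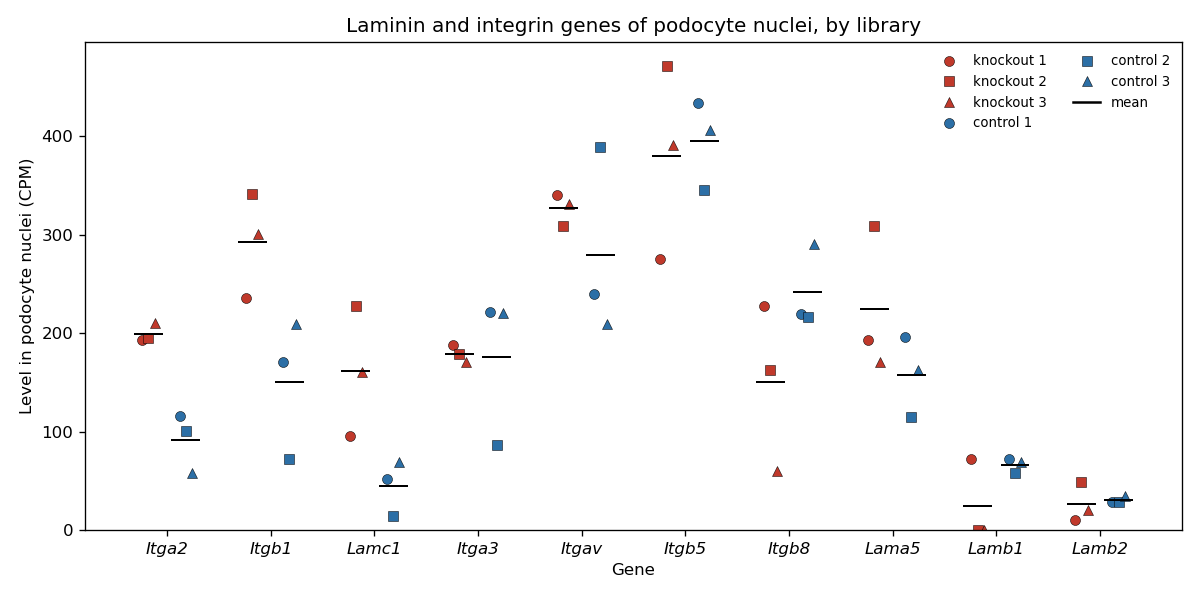
Level in podocyte nuclei (CPM, y axis) of 10 laminin and integrin genes (x axis) in each library (symbols), knockouts in red on the left of each pair and controls in blue on the right, with group means as bars. Itga2, Itgb1 and Lamc1 have all knockout libraries above all controls, and the other 7 genes overlap.

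Parietal epithelial nuclei, which line Bowman's capsule, numbered 27 to 54 per knockout and 14 to 28 per control library, and 4 members could be tested with none called by edgeR and 1 at an unadjusted p under 0.05, beside 1.13% of 883 genes called. Itga1 was at 321, 440 and 261 CPM in knockouts 1, 2 and 3, against 495, 589 and 682 CPM in controls 1, 2 and 3, without overlap, as for 11.3% of genes (log2 -0.72 ± 0.32, edgeR adjusted p = 0.324). Itgb1 was at 135, 440 and 391.9 CPM in the knockouts, against 107, 0 and 244 CPM in the controls (log2 1.43 ± 0.69, edgeR adjusted p = 0.335). Lamc1 was at 135, 220 and 317 CPM in knockouts 1, 2 and 3, against 66.9, 126 and 195 CPM in controls 1, 2 and 3, which overlap.

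The fibronectin receptor chain Itga5, named after its values were seen, was at 59.1, 440 and 187 CPM in the knockouts and at 0 in all 3 controls, from 31 and 0 UMIs. Set against 3 UMIs in the control group, the knockout was at least 6.03-fold higher, and the gene did not pass the low-count filter. Markers of other cells were also read in this class, over ranges that overlap in part: mesangial and mural markers summed to 251 to 1120 CPM in the knockouts and 84.1 to 341 CPM in the controls, with 2 of 8 at 0, and endothelial markers to 110 to 914 CPM in the knockouts and 48.7 to 126 CPM in the controls, with 2 of 9 at 0. Other sets were apart between the groups. Injured tubule markers summed to 819 to 1698 CPM in the knockouts and 210 to 633.5 CPM in the controls, with 1 of 9 at 0 (Lcn2), and podocyte markers to 2120 to 3359 CPM in the knockouts and 1429 to 1998 CPM in the controls, with none of 10 at 0. Connecting tubule markers came to 188.5 to 448 CPM in the knockouts and 504 to 633.5 CPM in the controls, with 2 of 7 at 0. The part of these marker levels in the parietal values of Itga5 and Itgb1, and of the matrix ligands Tnc and Fn1 in the same nuclei, was not tested.

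In the remaining classes the members nearest the threshold were Itgav in the connecting tubule, Lamb1 in the distal convoluted tubule and Itga1 in principal cells, beside the genes given above. Itgav was at 294, 272 and 184 CPM in knockouts 1, 2 and 3, against 338, 390 and 319 CPM in controls 1, 2 and 3, without overlap, as for 4.48% of genes (log2 -0.47 ± 0.22, edgeR adjusted p = 0.999). Itga1 was at 127, 91.1 and 90.9 CPM in knockout principal cells and 154, 202 and 146.5 CPM in control principal cells, also without overlap, as for 4.01% of genes (log2 -0.63 ± 0.32, edgeR adjusted p = 0.941). Lamb1 was at 249, 249 and 404 CPM in knockouts and 225, 151.9 and 280 CPM in controls, which overlap (log2 0.33 ± 0.27, edgeR adjusted p = 0.999). Lamb1 in the class of its highest pooled mean, the thick ascending limb, was at 282, 273 and 310 CPM in knockouts 1, 2 and 3 and 251, 287 and 532 CPM in controls 1, 2 and 3.

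Over the whole cortex, all nuclei of a library summed, Lama3 was at 41.2, 29.3 and 32.9 CPM in knockouts 1, 2 and 3, against 142, 209 and 144 CPM in controls 1, 2 and 3. The log2 fold change stood at -2.31 ± 0.20 (edgeR adjusted p = 0.0212), the 1 call among 33 members tested, beside 0.192% of all genes, and 5 members had an unadjusted p under 0.05, beside 9.89%. The call was lost without control 2 or 3 or knockout 2 or 3 (edgeR adjusted p of 0.0801 to 0.195). Itga6 was at 324, 302 and 366 CPM in the knockouts and 147, 189 and 149 CPM in the controls, without overlap, as for 10.7% of genes (log2 0.98 ± 0.14, edgeR adjusted p = 0.0618). With the block it passed at 0.98 (edgeR adjusted p = 0.0311, in a fit that called 1.73% of genes). Injured tubule nuclei, the class with the highest Itgb6 level in both groups, made up 9.03 ± 2.93% of knockout and 0.450 ± 0.234% of control nuclei (n = 3 each, two-sided exact permutation test, p = 0.1, the lowest value possible with 3 libraries a group), so a sum over the cortex cannot tell more cells of a type from more RNA per cell.

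Genes of the proteins around laminins and integrins were taken from 3 lists: 22 basement membrane partners, 18 other integrin ligands and 30 integrin adaptors. Over the 15 classes 6 pairs of a gene and a class passed, all higher in the knockout. That count was 0 without control 2 or without knockout 2, 1 without knockout 3 and 23 without knockout 1. In podocytes, 1 of 10 partners tested was called, Frem1, a matrix protein of epithelial basement membranes, at 184 ± 39.2 CPM in knockouts and 13.9 ± 14.4 CPM in controls (log2 3.71 ± 0.55, edgeR adjusted p = 0.0416, n = 3 each). The median log2 change of those 10 partners was 0.41.

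In stromal nuclei, 1 of 18 partners and 1 of 9 other ligands were called. The ligand was Tnc, tenascin-C, at 73.0 ± 21.3 CPM in knockouts and 3.74 ± 4.54 CPM in controls (log2 3.59 ± 0.56, edgeR adjusted p = 0.0176). The partner was Smoc2, a matrix-associated calcium-binding protein, at 72.9 ± 37.2 CPM in knockouts and 10.8 ± 4.36 CPM in controls (log2 2.85 ± 0.51, edgeR adjusted p = 0.0347), and it is also among the leading genes of 1 stromal cluster. Among integrin adaptors no gene was called in any class.

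In parietal epithelial nuclei both other ligands tested were called. Tnc, the leading gene of this cluster, was at 2386 ± 1360 CPM in knockouts and 203 ± 92.8 CPM in controls (log2 3.71 ± 0.59, edgeR adjusted p = 0.0178). Fn1, fibronectin, was at 1072 ± 732 CPM in knockouts and had 0 UMIs in the controls, which puts it at least 32.1-fold higher when 3 UMIs are taken for the control group (edgeR adjusted p = 0.0178). In injured tubule nuclei Vcam1, a ligand of integrin alpha 4 and itself 1 of the markers that named the class, was at 310 ± 37.9 CPM in knockouts and 39.2 ± 21.0 CPM in controls (log2 3.28 ± 0.38, edgeR adjusted p = 0.0183). Over the whole cortex, Actn1, alpha-actinin-1, which links integrin adhesions to actin, was at 55.5 ± 2.81 CPM in knockouts and 22.4 ± 1.56 CPM in controls (log2 1.25 ± 0.13, edgeR adjusted p = 0.0367), and Vcam1 and Fn1 passed too, at log2 changes of 4.11 ± 0.53 and 1.82 ± 0.23 (edgeR adjusted p = 0.0496 for both).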

How the data were processed

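Raw UMI counts were deposited for every gene and barcode. The file headers name Cell Ranger 3.1.0, and mm10 is given per the submitters' processing notes, which also name Seurat without a role. From these counts, barcodes were kept if they held 300 genes or more and no more than 5% mitochondrial UMIs, and the top Scrublet scores (scanpy 1.11.5) were removed as doublets at 0.8% per 1000 barcodes. That share was set after the automatic threshold had called 0 to 6 per library. Nuclei were clustered (Leiden, igraph 0.11.9) on 3000 variable genes without the members, and the 55 clusters were named from marker lists; 10 mixed and 5 unnamed clusters entered only the whole cortex. Naming limits were chosen with the clusters in view. UMIs were summed per library and class and tested with edgeR 4.0.16 (TMM, filterByExpr, quasi-likelihood, Benjamini-Hochberg over all genes of a class). The SE is the log2 change over the root of F. DESeq2 1.42.0, the replicate block and other settings were alternatives.

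The levels of 1 member are not reported here. The members and lists were chosen with earlier results of these data known. The text names Lama3, Itga6, Itgb6 and Itgb1 and, per class, the 2 members with the smallest p. The replicate numbers of the labels were used as the pairing. Deviations from the group means correlated within each number over the whole cortex (Pearson r of 0.717, 0.393 and 0.457 across 16130 genes). Knockout 2, however, correlated more with control 3 (0.442) than with control 2, as in the proximal tubule (0.409 against 0.302). Knockout 3 with control 2 stood at 0.427, so over the whole cortex number 1 alone was clearly set apart. The labels give no source for the pairing, on which calls made only with the block rest. The depth was 8270961 to 62016616 UMIs per library. Floors cover counting error only.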

Additional observations from a re-analysis of the deposited data

Results flagged for a closer look

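Itgav, the alpha V chain, lay on opposite sides of the controls in a pair of classes: all knockout libraries were above all controls in injured tubule nuclei (log2 1.19) and below all controls in the connecting tubule (log2 -0.47). The difference between the classes was not tested, and injured tubule nuclei had 2 control libraries.

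Lama5, the alpha chain of mature basement membranes, was above all controls in injured tubule nuclei (log2 0.72) and below all controls in urothelium (log2 -0.33). This difference was not tested either, and urothelium had 2 libraries per group.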

How the results depend on the processing

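Without the low-count filter, 1 member passed in the connecting tubule, distal convoluted tubule, thick ascending limb, immune and both intercalated classes (Lama3, lower), 1 in endothelial nuclei (Itgb6) and 1 in parietal nuclei (Itga5), 4 in injured tubule, 2 in stromal nuclei and 2 in the whole cortex. With the replicate block, 1 passed in the distal convoluted tubule, immune and both intercalated classes, 3 in endothelial nuclei, 2 in stromal nuclei and 2 in the whole cortex, and the pairing changed no other call of a member. DESeq2 called 1 in immune and both intercalated classes, 2 in injured tubule (Lama3 and Itgav), 2 in the proximal tubule and 4 in the whole cortex. Shares of all genes called are given in this report for edgeR's main fit and the replicate block alone. Counts under the other settings, here and below, therefore cannot be set against the rate over all genes. Naming clusters by the highest score gave 1 in endothelial and 0 in stromal nuclei, and log2 -0.07 for Lamb1 in the distal convoluted tubule. Members among the clustering genes gave 2 in cycling and 0 in stromal nuclei. Keeping doublets gave 0 in injured tubule, 0 in stromal nuclei and 1 in podocytes (Lama3, lower). Chosen after seeing the data, leaving out shared barcodes gave 1 in immune and 0 in stromal nuclei, and at least 500 genes gave 1 in immune nuclei, with injured tubule not tested there.

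Without both libraries numbered 1, 2 members passed in podocytes (Lamc1 and Itga2, higher) and 2 in the whole cortex, and 1 class difference of Lama3 passed. Leaving out 1 library at a time gave 0 to 2 calls in injured tubule, 0 to 1 in podocytes, the proximal tubule, stromal nuclei and the whole cortex, and 0 to 1 class differences. The 6 pathway calls became 11 with DESeq2, 24 without the filter, 14 with the block, 21 without both libraries numbered 1 and 0 to 23 with 1 library left out. The causes were not tested. The highest class was the same for 32 of 36 members with members among the clustering genes and for 29 with at least 500 genes. Parietal, podocyte and urothelial values rest on few nuclei.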
